A study of Homo sapiens with 30 samples.

Results

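The 10 genes described here are 7 subunits of the AP-1 transcription factor (FOS, FOSB, FOSL1, FOSL2, JUN, JUNB and JUND), the AP-1 related factor ATF3, and the immediate early genes EGR1 and IER3. They were taken by symbol, by a rule with no threshold on a measured value, although earlier results of these data were known when the list was made. All 10 were found in each count table, among 60612 genes of the knockout table and 56303 genes of the overexpression and knockdown tables, and all 10 passed the filter on low counts in every comparison. RNA-seq was performed on 5637 cells, a human bladder carcinoma cell line, in 3 experiments with 3 libraries per group and 30 libraries in all. The knockout experiment held KO1 and KO2, which carry the genotype RBPMS-KO, and the control groups WT1 and WT2. These KO groups were matched to sgRBPMS-1 and sgRBPMS-2 of the study by number, and the discussion of the study describes the knockout populations as expanded from single clones over long passaging, so clone and knockout cannot be told apart within 1 group. The overexpression experiment held Vector, ANKRD10-1 and ANKRD10-2 (plasmids for the long and the short splice variant of ANKRD10), and the knockdown experiment held siNC, siANKRD10-1 and siANKRD10-2. The text of the study places overexpression of ANKRD10-1 and knockdown of ANKRD10-2 in cells already lacking RBPMS, whereas the labels name only 5637 cells and each of these tables has 1 control group. Variant and cell background therefore cannot be told apart there. Nothing states that the 3 libraries of a group came from separate cultures, so p-values measure the spread between libraries.

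AP-1 is a dimer of a FOS family protein with a JUN family protein, or of JUN proteins alone, that binds DNA through a basic leucine zipper. FOS, FOSB, EGR1 and IER3 are classic immediate early genes, transcribed within minutes of a growth factor or stress signal without new protein synthesis, and their mRNAs are short lived. FOSL1 and FOSL2 accumulate later and lack the strong activation domains of FOS, and FOSL1 is widely linked to migration and mesenchymal traits of carcinoma cells. RBPMS, an RNA-binding protein with 1 recognition motif, has been described as a repressor of AP-1 signaling in other cancer cells, which gives the question of these comparisons.

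Promoter sequences are shown for 4 of the 7 members with a response motif before the start of transcription: FOS, FOSB and EGR1, which moved together in the overexpression experiment, and ATF3, which moved the other way there. The RefSeq promoter table of build GRCh38.p14 matched 8 of the 10 members (not FOSL1 and IER3) and gave 9 promoters. The 250 bases before each start were searched on both strands for the AP-1 site TGACTCA, the 8-base variant TGACNTCA, the core TGACGT of the cAMP response element and the CArG box bound by serum response factor. The variant TGACNTCA with G at the open base holds TGACGT, so these matches overlap. Among 34943 promoters of the table, 4.22% held TGACTCA, 6.86% held TGACNTCA, 7.09% held TGACGT and 1.16% held a CArG box. Within these 250 bases, no member promoter held TGACTCA, 3 members (JUN, JUND and ATF3) held TGACNTCA and 5 members (FOS, FOSB, FOSL2, JUND and EGR1) held TGACGT. EGR1 alone of the matched members held CArG boxes in this window. Bases further from the start were not searched, so a gene without a match here, FOS included, may carry the motif further away. ATF3 had 2 promoters, and the one searched at chr1:212614768-212615017 held none of these motifs. Stretches around the matches follow on the gene strand, with matched bases in capitals.
FOS, chr14:75278749-75278773, plus strand: ccgtggttgagcccgTGACGTttac
FOSB, chr19:45467921-45467956, plus strand: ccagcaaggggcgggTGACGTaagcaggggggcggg
EGR1, chr5:138465328-138465432, plus strand: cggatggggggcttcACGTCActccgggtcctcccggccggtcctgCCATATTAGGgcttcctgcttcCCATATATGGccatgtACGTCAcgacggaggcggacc
ATF3, chr1:212565269-212565306, plus strand: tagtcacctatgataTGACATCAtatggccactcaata
The capitals of EGR1 mark TGACGT read on the opposite strand and, between them, the 2 CArG boxes. In FOS, FOSB and FOSL2 the TGACGT core began 64, 60 and 66 bases before the RefSeq start, and in EGR1 the nearer core began at 67. RefSeq starts can differ from the gene coordinates given below, as they do for FOS and FOSL2. The FOSL2 window (chr2:28392608-28392857) lies inside those coordinates. A match is a description of the letters in the window and not a measured binding site.

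Total counts per library ranged from 44593108 to 69723937 in the knockout table, from 31736779 to 47493499 in the overexpression table and from 28511029 to 32784584 in the knockdown table. As a check of the labels, RBPMS fell from 39.0, 42.2 and 40.1 CPM (counts scaled to library size) in WT1 to 15.1, 15.2 and 14.3 CPM in KO1, and from 44.2, 42.8 and 42.4 CPM in WT2 to 20.7, 18.9 and 21.3 CPM in KO2. ANKRD10 counts, which sum its variants, were 1.59-fold higher with ANKRD10-1 and 1.33-fold higher with ANKRD10-2 than with Vector. They were 1.18-fold lower with siANKRD10-1 and 1.19-fold lower with siANKRD10-2 than with siNC, and each of these changes passed the test. In the knockouts, ANKRD10 counts were lower by larger factors, 2.26-fold in KO1 (edgeR adjusted p = 6.55e-08) and 1.70-fold in KO2 (edgeR adjusted p = 3.98e-08). RBPMS was at 4.50 ± 0.811 CPM (SD, n = 3) with ANKRD10-1 against 5.13 ± 0.359 CPM with Vector, and at 5.11 ± 0.0717 CPM with siANKRD10-2 against 5.01 ± 0.749 CPM with siNC, and neither difference passed the test. The summed level of epithelial markers lay between 2696 and 5615 CPM in every library. That of fibroblast markers lay between 27.9 and 57.2 CPM, with COL1A1 among them at 26.6 to 52.2 CPM. That of endothelial markers lay between 1.13 and 3.05 CPM. PTPRC, CD3E and LYZ, which mark blood cells, were at most 0.414 CPM, although CD68 reached 23.7 CPM in the overexpression table against at most 1.59 CPM in the knockout table.

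In the control libraries, the members differed widely in level per kilobase of gene length. In the 6 WT libraries JUNB (62.2 ± 5.44 CPM per kb, SD) and IER3 (60.6 ± 5.50) led and overlapped each other. They were followed by FOSL2 (22.5 ± 1.19), then by JUN (16.9 ± 2.29), JUND (15.7 ± 2.12) and EGR1 (12.95 ± 5.03), whose neighbours in this order overlapped. FOSL1 (5.98 ± 0.443), ATF3 (1.61 ± 0.252), FOS (0.681 ± 0.148) and FOSB (0.201 ± 0.0463) came last without overlap between neighbours. FOS and FOSB mRNA were thus scarce in the WT libraries. The order differed in the other tables, which were normalized separately. JUN led in Vector (164 ± 5.81 CPM per kb, n = 3) with FOS at 36.3 ± 0.734, and IER3 (69.6 ± 9.64) and JUN (62.1 ± 4.17) led in siNC with FOS at 11.0 ± 0.510. Experiment, transfection and counting cannot be told apart in these differences between tables, so changes are given only within a table.

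**Figure D1:**
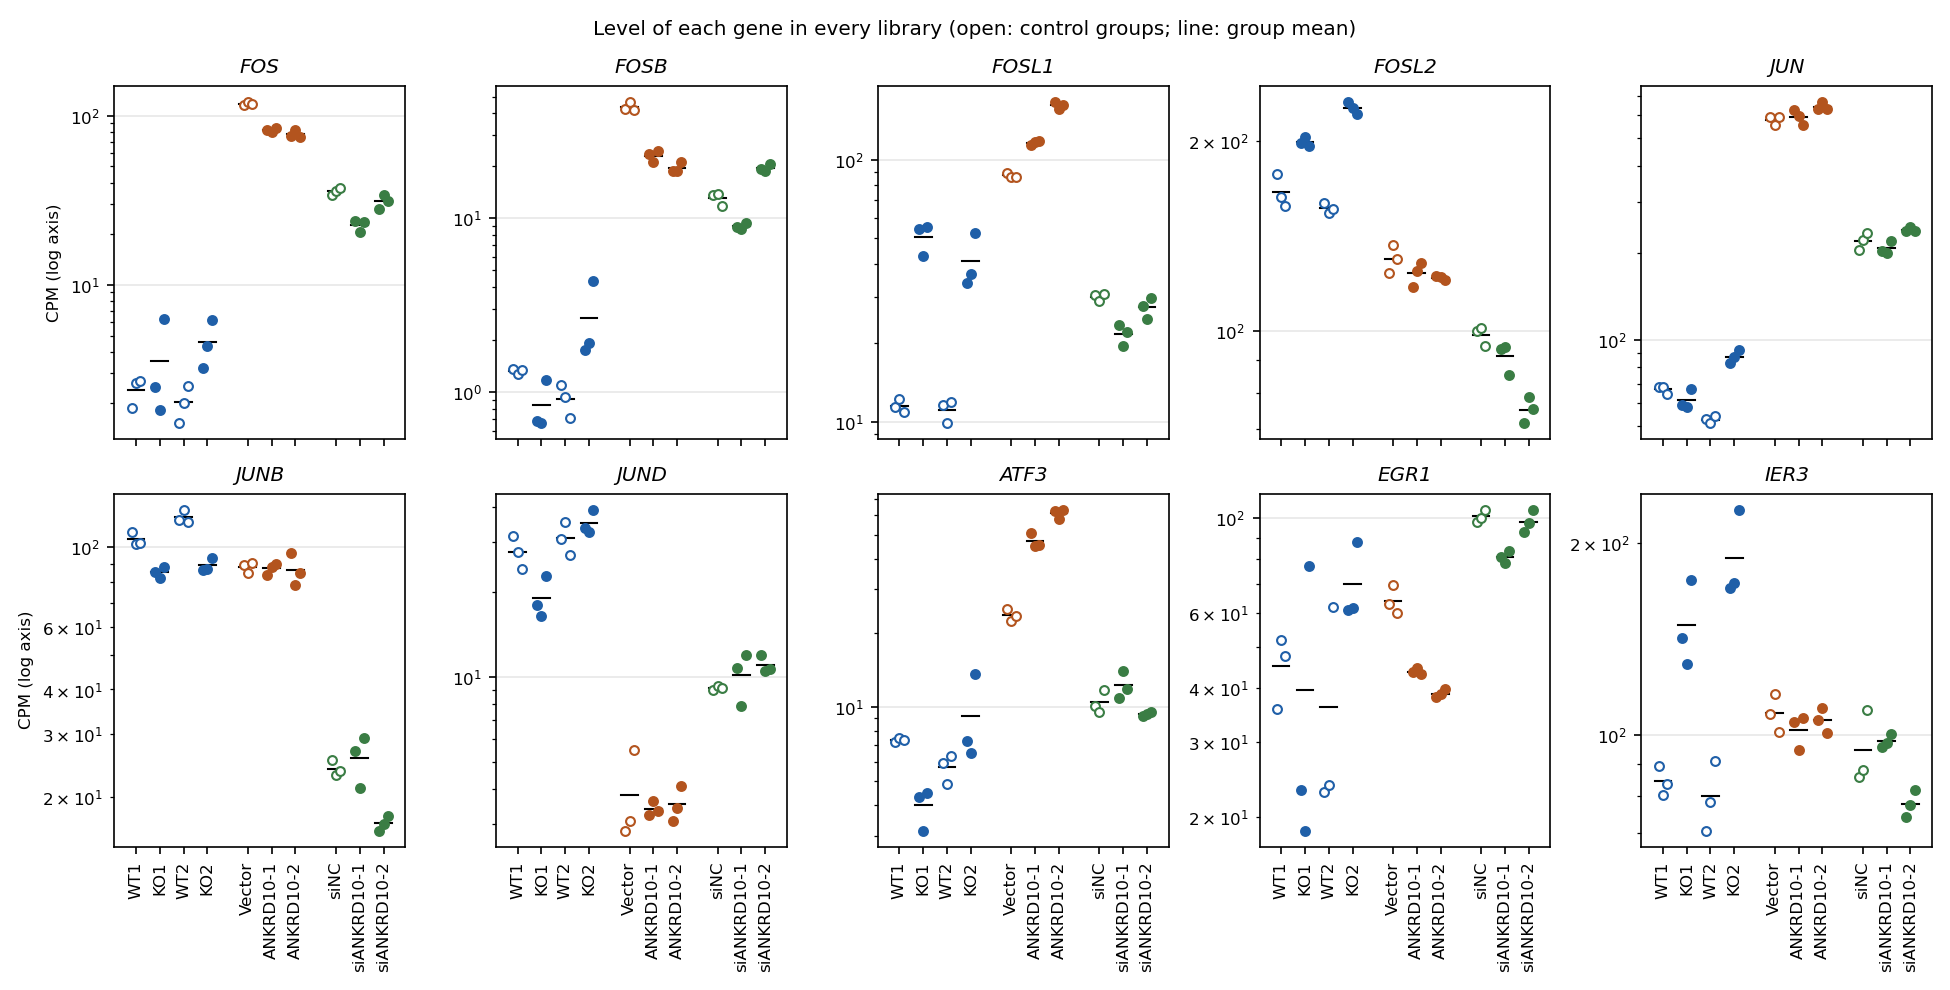
Each panel plots 1 gene, with the 10 groups on the x axis and CPM on a log y axis; points are libraries (open for control groups, filled for treated groups, blue for knockout, orange for overexpression, green for knockdown) and lines are group means. FOSL1 in KO1 and KO2 lies above every WT library, while EGR1 in KO1 spreads from 18.6 to 77.4 CPM.

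The knockout comparisons ask whether loss of RBPMS goes with more AP-1 mRNA. In KO1, 3 members were higher and 3 lower than in WT1, and in KO2, 8 members were higher and 1 lower than in WT2 (edgeR, adjusted p under 0.05). Among all genes tested, 36.1% were called in KO1 (17.9% higher and 18.2% lower) and 38.5% in KO2 (19.3% higher and 19.2% lower). The share of members called higher in KO2 thus lay far above the background, whereas in KO1 the members were called in both directions alike. The median absolute log2 change of the members was 0.55 in KO1 and 0.83 in KO2, against 0.26 and 0.25 over all genes. The median log2 change itself was -0.16 in KO1 and 0.83 in KO2, with all-gene medians of -0.0020 and -0.016. FOSL1, FOSL2 and IER3 rose and JUNB fell in both knockouts. FOS, FOSB, JUN and EGR1 passed the test in KO2 and not in KO1, and ATF3 moved in opposite directions. Groups did not overlap for 7 members in KO1 and 8 in KO2, beside 48.7% and 49.5% of all genes. In bulk RNA, fewer cells with a transcript and less of it per cell cannot be told apart.

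FOSL1 (also FRA-1; chr11:65892049-65900573, minus strand, GRCh38) showed the largest change of the members in each knockout. It was at 11.4, 12.2 and 10.9 CPM in WT1 and at 54.3, 42.9 and 55.3 CPM in KO1. It was at 11.6, 9.85 and 11.8 CPM in WT2 and at 33.9, 36.6 and 52.3 CPM in KO2. Every knockout library exceeded every control library. The rise was 4.42-fold in KO1 (log2 fold change 2.15 ± 0.10 SE, edgeR adjusted p = 1.13e-07) and 3.68-fold in KO2 (1.88 ± 0.14, edgeR adjusted p = 6.88e-07). A change at least as large was seen in 2.46% of genes tested in KO1 and 2.76% in KO2.

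Of the other FOS family members, FOSL2 (also FRA-2; chr2:28392448-28417312, plus strand) rose by a smaller factor from a high level. It went from 177, 163 and 158 CPM in WT1 to 198, 203 and 197 CPM in KO1 (1.20-fold, edgeR adjusted p = 0.00244). In KO2 it was at 231, 226 and 221 CPM against 159.7, 154 and 156 CPM in WT2 (1.44-fold, edgeR adjusted p = 2.86e-07). The groups did not overlap in either knockout. FOS (chr14:75278774-75282230, plus strand), the founding subunit, was scarce, at 1.86, 2.63 and 2.68 CPM in WT1 and 1.52, 2.01 and 2.53 CPM in WT2. In KO2 it was at 3.23, 4.36 and 6.18 CPM, above every WT2 library (2.27-fold, log2 fold change 1.18 ± 0.26 SE, edgeR adjusted p = 0.00338). In KO1 it was at 2.48, 1.82 and 6.27 CPM, which overlapped WT1, and the difference of 0.55 ± 0.39 did not pass the test. KO1 replicate 3 set the sign there, since the log2 fold change was -0.15 without it.

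FOSB (chr19:45467995-45475179, plus strand), a close relative of FOS, was the least abundant member and moved apart in the knockouts. It was at 1.36, 1.26 and 1.33 CPM in WT1 and at 0.679, 0.661 and 1.18 CPM in KO1, a log2 difference of -0.65 ± 0.32 SE that did not pass the test (edgeR adjusted p = 0.143) although the groups did not overlap. Without KO1 replicate 3 the difference was -0.97 and passed. In KO2 it was at 1.73, 1.91 and 4.33 CPM against 1.101, 0.933 and 0.707 CPM in WT2, a 2.91-fold rise (1.54 ± 0.36, edgeR adjusted p = 0.00476) with no overlap.

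Among the JUN family, JUN (chr1:58780788-58784327, minus strand), the main partner of FOS, rose in KO2. It was at 82.7, 86.8 and 92.2 CPM in KO2 against 52.8, 51.2 and 54.1 CPM in WT2 (1.65-fold, edgeR adjusted p = 3.69e-07), with no overlap. In KO1 it was at 59.0, 58.2 and 67.4 CPM, within reach of the 68.2, 68.6 and 64.8 CPM of WT1 (log2 difference -0.13 ± 0.07 SE, edgeR adjusted p = 0.157). Without KO1 replicate 3 this difference was -0.20 and passed, and with all 6 WT libraries as controls it was 0.04. JUNB (chr19:12791496-12793315, plus strand), which can oppose JUN, fell in both knockouts. It was at 110.1, 102.3 and 102.8 CPM in WT1 and 85.4, 82.1 and 88.2 CPM in KO1 (1.23-fold lower, edgeR adjusted p = 0.001). It was at 119, 127 and 118 CPM in WT2 and 86.6, 87.1 and 93.5 CPM in KO2 (1.37-fold lower, edgeR adjusted p = 1.06e-05). The groups did not overlap, but JUNB lies across from HOOK2 on the other strand, and reads of the pair cannot be told apart where counting ignored strand, which is not stated. JUND (chr19:18279760-18281622, minus strand), the constitutive family member, fell in KO1 from 31.4, 27.6 and 24.0 CPM to 17.9, 16.4 and 22.7 CPM (1.46-fold lower, edgeR adjusted p = 0.00672). In KO2 it was at 33.6, 32.4 and 39.0 CPM against 30.6, 35.2 and 26.8 CPM, and the log2 difference of 0.18 ± 0.09 SE passed only without WT2 replicate 2, where it was 0.28.

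ATF3 (chr1:212565334-212620777, plus strand), a stress-induced factor that pairs with JUN proteins, fell in KO1 and rose in KO2. It was at 7.22, 7.45 and 7.35 CPM in WT1 and 4.33, 3.15 and 4.49 CPM in KO1, 1.84-fold lower with no overlap (edgeR adjusted p = 0.00159). In KO2 it was at 7.28, 6.53 and 13.6 CPM against 5.93, 4.86 and 6.30 CPM in WT2, 1.60-fold higher (log2 fold change 0.68 ± 0.24 SE, edgeR adjusted p = 0.0387). This rise was carried in part by KO2 replicate 3: without it the log2 fold change was 0.28, and the call was lost there and without WT2 replicate 1 (0.71), 2 (0.58) or 3 (0.76). It was also lost without the filter on low counts (0.67) and with all 6 WT libraries as controls (0.49).

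EGR1 (chr5:138465490-138469315, plus strand), a zinc finger factor induced through serum response factor, varied most between libraries of 1 group. It was at 35.8, 51.9 and 47.6 CPM in WT1 and 23.1, 18.6 and 77.4 CPM in KO1, and at 22.9, 23.8 and 61.8 CPM in WT2 and 60.8, 61.6 and 88.1 CPM in KO2. KO1 replicate 3 was the highest library of KO1 for 9 of the 10 members, all but FOSL2, and KO2 replicate 3 was the highest of KO2 for 9 members, again all but FOSL2. WT2 replicate 3 was the highest of its group for 6 members, and WT1 replicate 3 for 1. The part of these libraries in the results was tested only by leaving each out. The difference in KO1 was -0.19 ± 0.41 SE (edgeR adjusted p = 0.768), and it was -1.11 and passed without KO1 replicate 3. The rise in KO2 was 1.93-fold (0.95 ± 0.30, edgeR adjusted p = 0.0266) although the groups overlapped. It did not pass without KO2 replicate 3 (0.75), WT2 replicate 1 (0.70) or WT2 replicate 2 (0.72), with DESeq2, without the filter or with all groups in 1 fit.

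IER3 (chr6:30743199-30744554, minus strand), an early response gene that modulates survival signaling, rose in both knockouts from a high level. It was at 89.1, 80.4 and 83.7 CPM in WT1 and 142, 129 and 175 CPM in KO1 (1.76-fold, log2 fold change 0.82 ± 0.09 SE, edgeR adjusted p = 6.95e-05). It was at 70.5, 78.4 and 90.8 CPM in WT2 and 170.3, 174 and 226 CPM in KO2 (2.37-fold, 1.24 ± 0.11, edgeR adjusted p = 2.05e-06). No knockout library overlapped its controls. IER3 overlaps the gene XXbac-BPG252P9.10 on the other strand, with the limit given for JUNB.

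**Figure D2:**
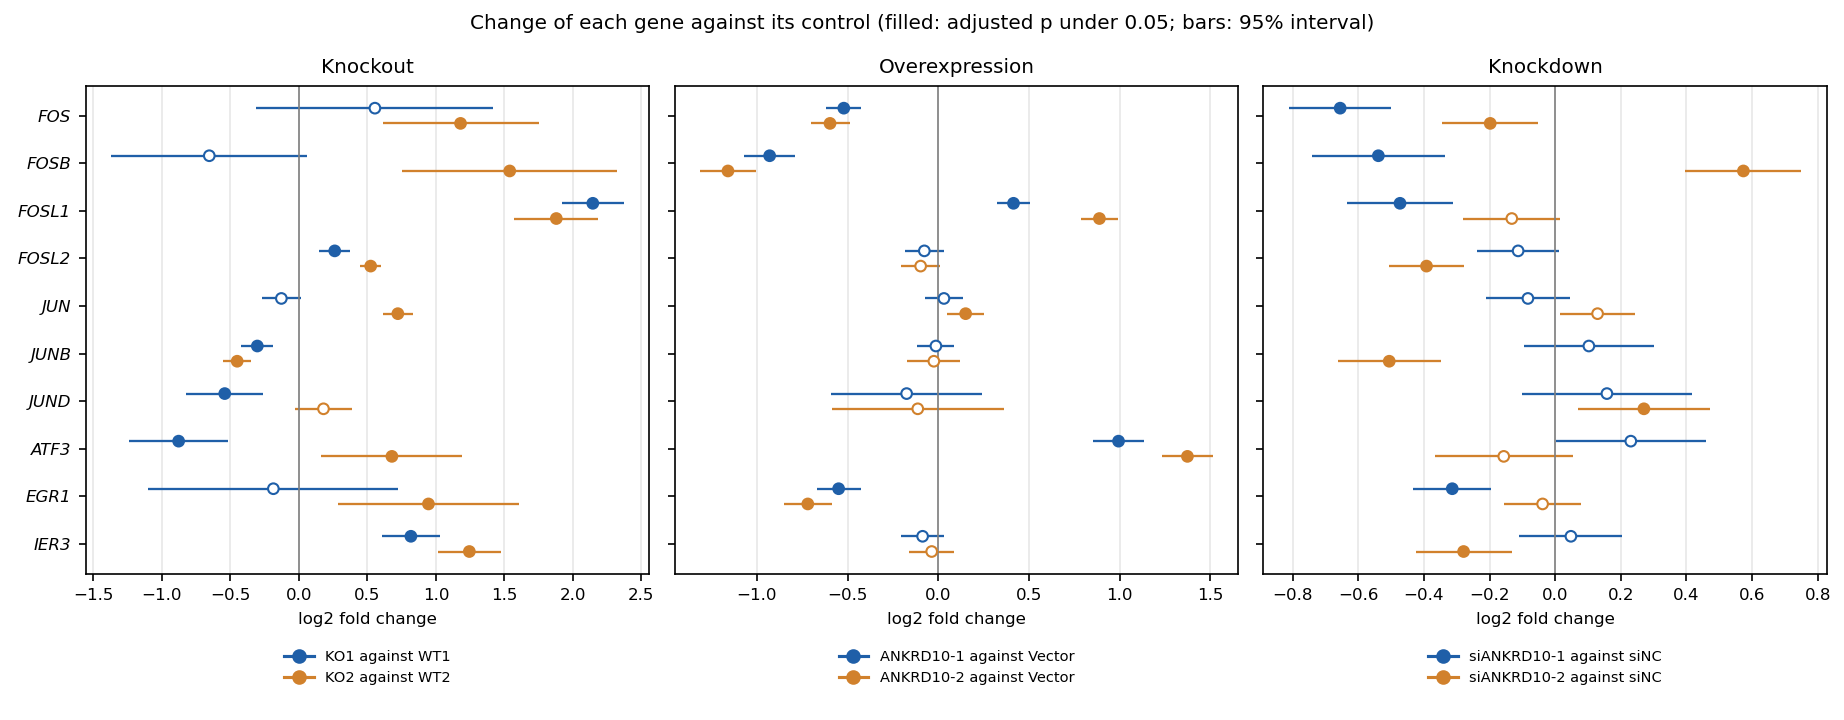
The x axis of each panel is the log2 fold change against the control group, points are the 10 genes (filled where edgeR adjusted p was under 0.05) and bars are 95% intervals; blue is the perturbation numbered 1 and orange the one numbered 2. FOSL1 is the rightmost gene of both knockouts, and FOS, FOSB and EGR1 lie left of 0 with both overexpressed variants.

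Whether the 2 knockouts changed a member unequally was tested by a contrast of KO1 (less WT1) with KO2 (less WT2) fitted to 12 libraries. Of all genes, 23.3% were called for this difference (11.2% higher and 12.1% lower), and of the members 5 were called, all lower in KO1. The difference was -0.85 ± 0.08 SE on the log2 scale for JUN (edgeR adjusted p = 1.84e-06), -1.56 ± 0.32 for ATF3 (0.00201), -2.20 ± 0.50 for FOSB (0.00433), -0.27 ± 0.06 for FOSL2 (0.00466) and -0.72 ± 0.18 for JUND (0.00748). For FOSL1 it was 0.26 (95% interval -0.16 to 0.68) and did not pass, and for JUNB it was 0.14 (-0.0059 to 0.29). The intervals were wide for FOS (-0.63, from -1.75 to 0.49) and EGR1 (-1.14, from -2.44 to 0.17), and for IER3 the difference was -0.43 (-0.78 to -0.08, edgeR adjusted p = 0.0761). Without KO1 replicate 3, FOS, EGR1 and IER3 also passed, which gave 8 members lower, and without KO2 replicate 3 FOSL1 passed at 0.48. Without WT2 replicate 3, EGR1 and IER3 passed. With the replicate number as a block 7 members were called, with EGR1 and IER3 added.

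The control groups also differed from each other in few genes. Between WT2 and WT1, 1.23% of genes were called (0.578% higher and 0.654% lower), and among the members JUN alone was called, 1.27-fold lower in WT2 (edgeR adjusted p = 0.00487). The difference between the knockouts for JUN rests in part on this gap, since JUN in KO1 lay between WT1 and WT2. FOSB (-0.53 ± 0.29 SE on the log2 scale) and ATF3 (-0.36 ± 0.13) were also lower in WT2 without overlap. JUNB (0.21 ± 0.05) was higher without overlap, and these 3 genes did not pass the edgeR test. In all, 4 members did not overlap between the control groups, beside 19.6% of all genes. Such gaps enter the contrast between the knockouts for these genes too. Among the gene lists described below, 0 of 29 other immediate early genes were higher and 4 lower in WT2 (13.8% called). Of 28 AP-1 targets, 1 was higher and 6 lower (25% called). Both shares lay above the 1.23% of all genes, and these gaps enter the knockout counts of those lists. EGR1 was at a log2 difference of -0.31 ± 0.29 SE, which passed at -0.95 without WT2 replicate 3, the library with 61.8 CPM. FOSL1 differed by -0.05 ± 0.10.

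**Figure D3:**
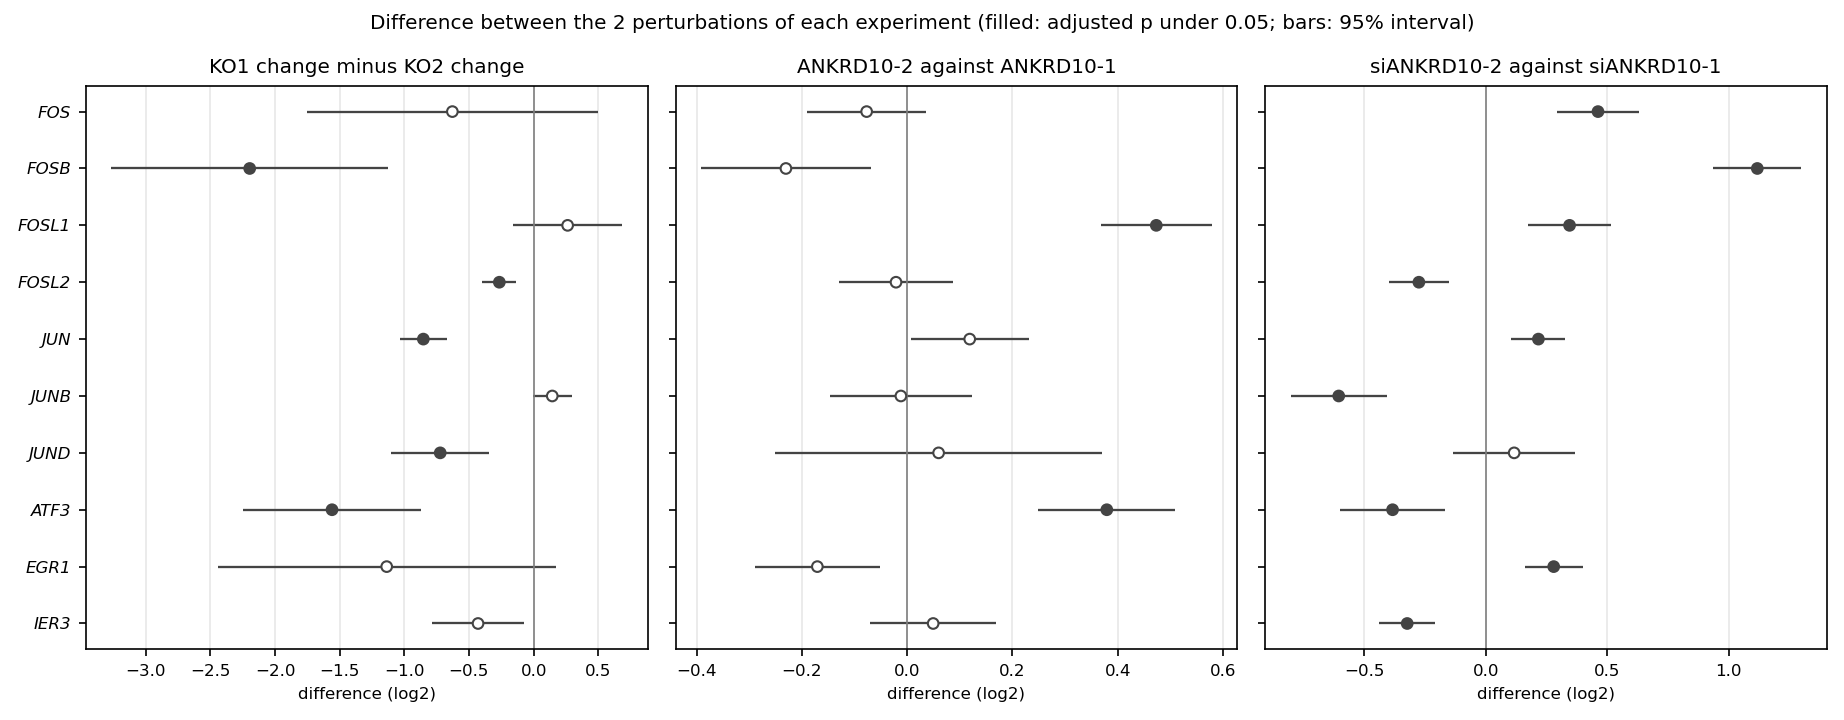
The x axis is the log2 difference between the perturbations of 1 experiment, with points for the 10 genes (filled where edgeR adjusted p was under 0.05) and bars for 95% intervals. The left panel gives the change in KO1 minus that in KO2, where FOSB lies at -2.20, the middle panel gives ANKRD10-2 against ANKRD10-1, where FOSL1 lies at 0.47, and the right panel gives siANKRD10-2 against siANKRD10-1, where FOSB lies at 1.12.

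Overexpression of either ANKRD10 variant was set against the same Vector libraries, so the 2 comparisons share their controls. With ANKRD10-1, 2 members were higher and 3 lower, against 6.31% of all genes called (3.5% higher and 2.81% lower). With ANKRD10-2, 3 members were higher and 3 lower, against 19.9% of all genes called (10.7% higher and 9.25% lower). ATF3 and FOSL1 rose, while FOS, FOSB and EGR1 fell with each variant. The median absolute log2 change of the members was 0.29 and 0.37, against 0.12 and 0.18 over all genes.

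ATF3 made the largest rise. It was at 25.1, 22.3 and 23.5 CPM in Vector, 50.9, 45.0 and 45.3 CPM with ANKRD10-1 and 62.4, 57.8 and 63.3 CPM with ANKRD10-2. The 3 groups did not overlap. The rise was 1.99-fold with ANKRD10-1 (log2 fold change 0.99 ± 0.07 SE, edgeR adjusted p = 1.07e-08) and 2.59-fold with ANKRD10-2 (1.37 ± 0.06, edgeR adjusted p = 3.82e-09). FOSL1 was at 88.9, 86.2 and 85.8 CPM in Vector, 114, 117 and 118 CPM with ANKRD10-1 and 166, 155.5 and 161 CPM with ANKRD10-2. These groups did not overlap either, and the rises were 1.33-fold (0.42 ± 0.04, edgeR adjusted p = 7.98e-06) and 1.85-fold (0.89 ± 0.05, edgeR adjusted p = 1.68e-08).

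FOSB fell most, from 42.4, 46.5 and 42.0 CPM in Vector to 23.4, 20.9 and 24.3 CPM with ANKRD10-1 (1.90-fold lower, edgeR adjusted p = 3.85e-08) and 18.6, 18.7 and 21.1 CPM with ANKRD10-2 (2.23-fold lower, edgeR adjusted p = 7.18e-08). FOS was at 116, 120.2 and 117 CPM in Vector, 82.4, 79.5 and 83.9 CPM with ANKRD10-1 and 76.2, 81.6 and 75.2 CPM with ANKRD10-2. It was lower 1.43-fold (edgeR adjusted p = 5.15e-07) and 1.51-fold (edgeR adjusted p = 1.98e-06). EGR1 was at 62.8, 69.6 and 59.9 CPM in Vector, 43.6, 44.6 and 43.2 CPM with ANKRD10-1 and 38.1, 38.7 and 39.8 CPM with ANKRD10-2. It was lower 1.46-fold (edgeR adjusted p = 5.99e-06) and 1.65-fold (edgeR adjusted p = 2.42e-06). For these 3 genes, every treated library lay below every Vector library. In all, 5 members with ANKRD10-1 and 7 with ANKRD10-2 did not overlap Vector, beside 25.7% and 36.3% of all genes. FOS, FOSB and EGR1 each carry the TGACGT core printed above. FOSL2 and JUND carry it too, and their log2 differences lay between -0.17 and -0.08 and did not pass.

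The remaining members changed little with overexpression. JUN was at 592, 557 and 594 CPM in Vector and 633, 668 and 632 CPM with ANKRD10-2 (1.11-fold higher, edgeR adjusted p = 0.0354). This call was lost without ANKRD10-2 replicate 2 (0.13 on the log2 scale) or 3 (0.17), or without Vector replicate 1 (0.17) or 2 (0.12). JUN with ANKRD10-1, and JUNB, JUND, FOSL2 and IER3 with either variant, did not pass, and the signs for JUNB, JUND and JUN with ANKRD10-1, and for JUNB, JUND and IER3 with ANKRD10-2, turned when 1 library was left out. JUND was scarce in this table, at 2.85, 3.08 and 5.50 CPM in Vector.

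Compared directly, ANKRD10-2 against ANKRD10-1 gave 2 members higher and 0 lower, against 7.26% of all genes called (4.15% higher and 3.1% lower). FOSL1 was 1.39-fold higher with ANKRD10-2 (log2 difference 0.47 ± 0.05 SE, edgeR adjusted p = 4.65e-06) and ATF3 was 1.30-fold higher (0.38 ± 0.06, edgeR adjusted p = 0.000608). For FOSB (-0.23, 95% interval -0.39 to -0.07) and EGR1 (-0.17, -0.29 to -0.05) the edgeR adjusted p was 0.077, and for FOS the difference was -0.08 (-0.19 to 0.04). The 2 rises of FOSL1 and ATF3 were thus the ones that differed between the variants by the test.

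Knockdown gave smaller changes. The siANKRD10 groups share the siNC libraries as controls. With siANKRD10-1, 0 members were higher and 4 lower, against 10.6% of all genes called (5.08% higher and 5.52% lower). With siANKRD10-2, 2 members were higher and 4 lower, against 36.3% of all genes called (17.6% higher and 18.7% lower). The median absolute log2 change of the members was 0.19 and 0.23, against 0.15 and 0.23 over all genes, so that with siANKRD10-2 the members' value lay close to that of all genes.

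With siANKRD10-1, FOS, FOSB, FOSL1 and EGR1 fell together. FOS was at 33.9, 36.0 and 37.2 CPM in siNC and 23.9, 20.5 and 23.6 CPM with siANKRD10-1 (1.57-fold lower, log2 fold change -0.66 ± 0.07 SE, edgeR adjusted p = 1.47e-05). FOSB was at 13.6, 13.8 and 11.7 CPM in siNC and 8.83, 8.70 and 9.39 CPM (1.45-fold lower, edgeR adjusted p = 0.00133). FOSL1 went from 30.4, 28.8 and 30.8 CPM to 23.3, 19.4 and 22.0 CPM (1.39-fold lower, edgeR adjusted p = 0.000557). All treated libraries of these genes lay below all siNC libraries, and 5 members in all did not overlap, beside 28.3% of all genes. EGR1, at 97.97, 99.9 and 104.6 CPM in siNC and 81.0, 78.3 and 83.9 CPM with siANKRD10-1, showed the smallest of these falls (1.24-fold lower, edgeR adjusted p = 0.00137).

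With siANKRD10-2, members of the same families moved in different directions. FOSB was higher at 19.1, 18.5 and 20.6 CPM (1.49-fold, edgeR adjusted p = 7.32e-06), whereas FOSL2 was lower at 71.6, 78.8 and 75.2 CPM against 100.1, 101.3 and 94.8 CPM in siNC (1.31-fold lower, edgeR adjusted p = 3.79e-06). JUNB was lower at 16.1, 16.9 and 17.7 CPM against 25.4, 23.0 and 23.7 CPM (1.42-fold lower, edgeR adjusted p = 7.67e-06). IER3 was lower at 74.2, 77.4 and 81.6 CPM against 85.8, 88.0 and 109.5 CPM (1.21-fold lower, edgeR adjusted p = 0.00285). None of these 4 genes overlapped its controls, and in all 7 members did not, beside 46.5% of all genes tested. Calls near the threshold did not hold in every fit. FOS at 28.1, 34.1 and 31.1 CPM overlapped siNC (1.15-fold lower, edgeR adjusted p = 0.0307), and the call was lost without siNC replicate 2 (-0.19) or 3 (-0.17), without siANKRD10-2 replicate 1 (-0.13) or 3 (-0.19), and with DESeq2. JUND at 11.9, 10.5 and 10.6 CPM lay above the 9.003, 9.24 and 9.12 CPM of siNC (1.21-fold, edgeR adjusted p = 0.0323), and the call was lost without siNC replicate 1 (0.26), 2 (0.28) or 3 (0.27), without siANKRD10-2 replicate 1 (0.21), with DESeq2, without the filter and with all groups in 1 fit. JUN was at a log2 difference of 0.13 ± 0.06 SE, which passed at 0.17 without siNC replicate 3. FOSL1, at 27.6, 24.7 and 29.6 CPM, did not pass (-0.13, 95% interval -0.28 to 0.02).

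The knockdowns differed from each other in 9 members, 5 higher and 4 lower with siANKRD10-2, against 37% of all genes called (18.2% higher and 18.8% lower). FOSB was 2.17-fold higher (log2 difference 1.12 ± 0.09 SE, edgeR adjusted p = 1.46e-09), and FOS (1.38-fold), FOSL1 (1.27-fold), EGR1 and JUN (1.16-fold) were also higher. JUNB was 1.52-fold lower (edgeR adjusted p = 2.57e-05), and ATF3 (1.30-fold), IER3 and FOSL2 were also lower. JUND was at 0.12 (95% interval -0.13 to 0.37). ANKRD10 itself differed by -0.0017 ± 0.06 between these groups, so its total counts did not separate them.

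Around the members, 4 gene lists written by hand were read by counts and medians alone. Beside them, 36.1% of all genes tested were called in KO1 and 38.5% in KO2. With overexpression this share was 6.31% for ANKRD10-1 and 19.9% for ANKRD10-2. With knockdown it was 10.6% for siANKRD10-1 and 36.3% for siANKRD10-2. AP-1 partners are other basic leucine zipper factors such as the small MAF proteins, JDP2 and ATF2. MAFG and MAFK rose and JDP2 and ATF2 fell in both knockouts (MAFG 0.30 and 0.42, JDP2 -0.46 and -0.41, ATF2 -0.39 and -0.34 on the log2 scale for KO1 and KO2). Of the 8 partners tested in each knockout, 3 were higher and 2 lower, with median log2 changes of 0.23 and 0.19. With overexpression JDP2, a repressor of AP-1, rose (0.57 with ANKRD10-1 and 0.51 with ANKRD10-2), as did MAFF (0.25 and 0.37), and of 9 partners tested 2 were higher and 0 lower with ANKRD10-1 and 4 higher and 1 lower with ANKRD10-2. With the knockdowns, 0 higher and 1 lower of 8 were called for siANKRD10-1 (MAFG, -0.21) and 0 of 8 for siANKRD10-2. The partners called made up 62.5% in each knockout, 22.2% with ANKRD10-1, 55.6% with ANKRD10-2, 12.5% with siANKRD10-1 and 0% with siANKRD10-2.

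Other immediate early genes split between the knockouts, whose control groups already differed in this list (0 higher and 4 lower in WT2 than in WT1). Of 29 tested, 8 were higher and 9 lower in KO1, and 17 higher and 3 lower in KO2, with median log2 changes of 0.0033 and 0.41. CCN1, a secreted matricellular protein (1.52 ± 0.09 SE on the log2 scale), PHLDA1 (1.37 ± 0.04) and DUSP1, a phosphatase that switches off MAP kinases (1.33 ± 0.17), rose most in KO2. CCN2 was -1.15 ± 0.16 and BTG2, an antiproliferative gene, -0.85 ± 0.08 in KO1, and BTG2 fell in KO2 too (-0.62 ± 0.06). The difference between the knockouts was called for 16 of the 29 (55.2%, beside 23.3% of all genes). Of these, 4 were higher and 12 lower in KO1, among them CCN1 (-1.74 ± 0.16) and KLF6 (-1.54 ± 0.12). With ANKRD10-2, 15 of 30 were higher and 2 lower, while with ANKRD10-1, 4 of 29 were higher and 2 lower. PPP1R15A, which restores translation after stress, rose with each variant (0.76 ± 0.05 with ANKRD10-1 and 0.81 ± 0.05 with ANKRD10-2), and CCN1 rose with ANKRD10-2 (0.83 ± 0.06). FOS, FOSB and EGR1 thus fell with ANKRD10-2 while more immediate early genes of the list rose than fell. With siANKRD10-1, 1 of 27 was higher and 5 lower, and with siANKRD10-2, 4 of 28 were higher and 11 lower, MYC among the latter (-0.60 ± 0.06). Of this list 58.6% were called in KO1 and 69% in KO2, beside 36.1% and 38.5% of all genes. The shares were 20.7% with ANKRD10-1 and 56.7% with ANKRD10-2, beside 6.31% and 19.9%. They were 22.2% with siANKRD10-1 and 53.6% with siANKRD10-2, beside 10.6% and 36.3%.

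Of 28 genes known as AP-1 targets, 13 were higher and 7 lower in KO1 (median log2 change 0.34), and 19 were higher and 4 lower in KO2 (median 0.72). The targets called made up 71.4% and 82.1% of those tested, beside 36.1% and 38.5% of all genes. The control groups differed in this list too, with 1 target higher and 6 lower in WT2 than in WT1. VIM, the mesenchymal intermediate filament vimentin, rose from 4.48 CPM in WT1 to 70.7 CPM in KO1 (3.98 ± 0.09 SE on the log2 scale) and from 4.52 CPM in WT2 to 45.9 CPM in KO2 (3.35 ± 0.10). HBEGF, a ligand of the EGF receptor, rose in KO1 (1.73 ± 0.08), and the cytokines IL6 (3.39 ± 0.33) and IL11 (2.80 ± 0.12) rose in KO2. Among the matrix metalloproteinases, MMP10 fell by 2.13 in KO1 and by 2.72 in KO2, and MMP13 fell by 2.21 and 1.02. MMP1 fell by 1.72 in KO2, while in KO1 it was at 0.097 ± 0.05 and did not pass the test. With ANKRD10-1, 3 of 27 targets were higher and 6 lower, and with ANKRD10-2, 9 of 27 were higher and 8 lower. VIM rose (0.46 ± 0.07 and 1.29 ± 0.06) and MMP13 fell (-1.45 ± 0.07 and -2.24 ± 0.09) with each variant. With siANKRD10-1, 5 of 28 were higher and 10 lower, and with siANKRD10-2, 6 of 28 were higher and 13 lower. Targets called made up 33.3% with ANKRD10-1 and 63% with ANKRD10-2, beside 6.31% and 19.9% of all genes. They made up 53.6% with siANKRD10-1 and 67.9% with siANKRD10-2, beside 10.6% and 36.3%. CCND1, which encodes cyclin D1, fell with each siRNA (-1.18 ± 0.06 and -1.48 ± 0.06), whereas MMP13 rose with each (1.05 ± 0.07 and 0.98 ± 0.06).

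Of 21 kinases and factors upstream of AP-1, 4 were higher and 5 lower in KO1 and 7 higher and 1 lower in KO2. Their median absolute log2 change was 0.14 and 0.11, below that of all genes. The shares called, 42.9% and 38.1%, lay near the 36.1% and 38.5% of all genes. MAP2K1, which encodes the ERK kinase MEK1, rose in each knockout (0.52 ± 0.05 and 0.63 ± 0.04 SE on the log2 scale) and with ANKRD10-2 (0.32 ± 0.06), and MAP2K2, for MEK2, fell in KO1 (-0.41 ± 0.05) and rose in KO2 (0.30 ± 0.05). SRF, the factor that binds the CArG box, rose with ANKRD10-2 (0.48 ± 0.10). With ANKRD10-1, 1 of 21 was higher and 0 lower, and with ANKRD10-2, 4 were higher and 1 lower. With siANKRD10-1, 0 were higher and 4 lower, and with siANKRD10-2, 3 were higher and 5 lower. The shares called were 4.76% with ANKRD10-1 and 23.8% with ANKRD10-2, beside 6.31% and 19.9% of all genes. They were 19% with siANKRD10-1 and 38.1% with siANKRD10-2, beside 10.6% and 36.3%. FBXW7, a ubiquitin ligase component that targets JUN, fell with siANKRD10-1 (-0.52 ± 0.06).

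Genes with a pattern most like FOS and FOSL1 were sought among 12156 genes over the 30 libraries, after centring log2 CPM within each table. Those nearest FOS were EGR1 (Pearson r = 0.844), IER2 (0.763), another immediate early gene, and CXCL1 (0.737), a chemokine. Those nearest FOSL1 were STC2 (0.943), VIM (0.943) and EIF4G1 (0.934). FOS and EGR1 correlated at 0.840, 0.972 and 0.941 within the knockout, overexpression and knockdown tables. FOS and FOSB (0.64, 0.98 and 0.61) and FOSB and EGR1 (0.67, 0.98 and 0.73) were also positive in each table, in the same order. Some other pairs of members did not keep their sign or size across tables. FOSL1 and IER3 (0.813 over all libraries) correlated at 0.921 in the knockout table but at -0.189 and -0.238 in the overexpression and knockdown tables. FOS and FOSL1 (0.491 over all) correlated at 0.631, -0.899 and 0.881 in the 3 tables. JUNB and FOSL1 (-0.549 over all) correlated at -0.884 in the knockout table and at -0.0913 and -0.189 in the others. The points share libraries and control groups within a table, so these coefficients describe the series and carry no test.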

How the data were processed

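RNA-seq counts per gene were deposited in 3 tables. The submitters' processing notes name Trimmomatic 0.36 for trimming, featureCounts of Subread 1.5.1 for counting and build GRCh38. The text of the study also names Trimmomatic, after Cutadapt, but gives HISAT2, StringTie and DESeq2 for the later steps, so which tool made the counts is not settled, and whether counting used strand is not given in the sources used here. The deposited counts were used as raw whole numbers.

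Each comparison was fitted on its own 2 groups with edgeR 4.0.16 (limma 3.58.1, R 4.3.3): filterByExpr with a minimum count of 10 and a minimum total of 15, TMM normalization, the quasi-likelihood test and Benjamini-Hochberg adjustment over all genes, with adjusted p under 0.05 as the call. The contrast between the knockouts used all 12 libraries of its table. CPM was computed with TMM over each table, and tables were normalized separately, so tests stay within a table. Levels per kilobase use the gene lengths of the overexpression table. The test was checked on simulated data. With 3 against 3 libraries an exact permutation test cannot go below 0.1, so none was used.

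The members and gene lists were chosen with earlier results of these data known. The text names the 10 members, RBPMS and ANKRD10, per list and comparison at most the 3 called genes that rose most and the 3 that fell most with a mean of at least 1 CPM, and the 3 genes most correlated with FOS and FOSL1 (log2 CPM with a prior count of 2).

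Alternatives were RLE size factors, DESeq2 1.42.0, no filter, all groups of a table in 1 fit, all 6 WT libraries as controls, a log2 change of at least 1, CPM by total count, the replicate number as a block, and leaving out each library. Where that left 1 group with 2 libraries, the spread was pooled by the fit. Promoter sequences came from the RefSeq table of GRCh38.p14.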

Additional observations from a re-analysis of the deposited data

Results flagged for a closer look

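The changes in KO1 and KO2 differed for 5 members by the edgeR test of the contrast between them, 3 libraries per group, beside 23.3% of all genes tested. As KO1 change minus KO2 change on the log2 scale, the differences were -0.85 for JUN, -1.56 for ATF3, -2.20 for FOSB, -0.27 for FOSL2 and -0.72 for JUND. ATF3 fell in KO1 and rose in KO2, although its rise in KO2 (edgeR adjusted p = 0.0387) lost the call in several fits given above. The ATF3 difference between the knockouts kept its call in all 12 fits without 1 library. FOSL2 rose in each knockout by unequal amounts. The controls WT1 and WT2 differed for JUN by -0.35 ± 0.05 SE (WT2 against WT1). For FOSB (-0.53 ± 0.29) and ATF3 (-0.36 ± 0.13) the controls did not overlap either, but these differences did not pass the test. Clone, guide and knockout level cannot be told apart here: RBPMS itself was at 14.9 ± 0.505 CPM (SD) in KO1 and 20.3 ± 1.23 CPM in KO2.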

How the results depend on the processing

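Over 1170 recomputed log2 changes of the members, 1104 kept direction and side of the threshold, 28 lost the call, 15 gained it and 23 turned sign without a call on either side. RLE size factors changed 0 of 100 calls, and DESeq2 and the fit without a filter each lost 3. Leaving out 1 library kept 607 of 660. Members called then ranged from 6 to 9 in KO1, 7 to 9 in KO2, 5 to 6 with ANKRD10-2, 4 to 6 with siANKRD10-2, 1 to 2 between WT2 and WT1 and 5 to 8 for the difference between the knockouts. They stayed at 5 with ANKRD10-1, 4 with siANKRD10-1, 2 for ANKRD10-2 against ANKRD10-1 and 9 for siANKRD10-2 against siANKRD10-1. DESeq2 called 2 members between WT2 and WT1.

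An added demand for a log2 change of at least 1 gave fewer calls (in parentheses, all genes called of those tested). Members called were 1 in KO1 (1149 of 17865), 4 in KO2 (1095 of 18267) and 0 between WT2 and WT1 (16 of 18335). They were 0 with ANKRD10-1 (80 of 20457), 2 with ANKRD10-2 (241 of 20177) and 0 for ANKRD10-2 against ANKRD10-1 (72 of 20052). They were 0 with siANKRD10-1 (69 of 18785), 0 with siANKRD10-2 (500 of 18924) and 1 for siANKRD10-2 against siANKRD10-1 (514 of 18832). Among all genes, leaving out 1 library lowered the calls to as few as 700 with ANKRD10-1 (1291 with all libraries), 2617 with ANKRD10-2 (4017), 949 with siANKRD10-1 (1991), 694 for ANKRD10-2 against ANKRD10-1 (1455) and 71 between WT2 and WT1 (226, and 690 with DESeq2 or 88 without a filter).

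Log2 changes whose sign turned ranged, over the fits without 1 library, as follows. In KO1, FOS went from -0.15 to 0.86 and EGR1 from -1.11 to 0.15, and JUN was 0.039 with all 6 WT libraries. With ANKRD10-1, JUN went from -0.0069 to 0.077, JUNB from -0.040 to 0.019 and JUND from -0.35 to 0.21. With ANKRD10-2, JUNB went from -0.11 to 0.048, JUND from -0.29 to 0.27 and IER3 from -0.082 to 0.013. IER3 went from -0.017 to 0.17 with siANKRD10-1 and EGR1 from -0.081 to 0.0011 with siANKRD10-2. Between WT2 and WT1, FOSL1 went from -0.099 to 0.027 and IER3 from -0.18 to 0.0054. For ANKRD10-2 against ANKRD10-1, FOSL2 went from -0.055 to 0.0068, JUNB from -0.099 to 0.054, JUND from -0.067 to 0.15 and IER3 from -0.00049 to 0.082. JUND went from -0.041 to 0.24 for siANKRD10-2 against siANKRD10-1. Apart from those that follow from leaving out libraries, the cause of these changes was not tested.

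The main fits did not pair samples by replicate number. Deviations of same-numbered samples correlated at -0.076 to 0.149 in the knockout table (median 0.059, against -0.032 for other numbers). The range was -0.030 to 0.168 in the overexpression table (median 0.048, against -0.020). It was -0.080 to 0.173 in the knockdown table (median -0.0041, against 0.0052). In 2 of 9 comparisons (KO2 against WT2 and ANKRD10-2 against Vector) every sample correlated best with its own number, a hint from the data and not the design. With the replicate number as a block, members called were 6 in KO1, 9 in KO2, 5 and 6 with the overexpressed variants, 4 and 6 with the siRNAs, and 7 for the difference between the knockouts, where EGR1 (-1.52) and IER3 (-0.44) gained a call. The block changed no other call.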
